A study of Mus musculus with 6 samples.

Results

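The genes described here encode the signalling relay below the interleukin-3 (IL-3) receptor: the Janus kinases Jak1, Jak2 and Tyk2, the transcription factors Stat3, Stat5a and Stat5b, and the feedback inhibitors Cish, Socs1, Socs2 and Socs3. They were chosen by gene symbol, with earlier results of these data known, and all 10 were found among the 20129 genes of the table. All 10 also passed the filter on low values, which kept 11900 genes that reached 1 CPM or more in 3 or more libraries. Levels in CPM are a gene's reads scaled to a library of 1000000 reads.

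Cytokine receptors of this class have no kinase of their own. Binding of the cytokine brings receptor-bound Janus kinases together, the kinases phosphorylate the receptor and STAT proteins, and STAT dimers enter the nucleus and switch on genes. The IL-3 receptor pairs an IL-3-specific alpha chain with a shared beta chain that carries JAK2 and signals mainly through STAT5. Among the genes that STAT5 switches on are Cish and Socs2, whose products block further signalling. SOCS3 restrains receptors of the IL-6 family, which signal through STAT3, and SOCS1 restrains interferon signalling. Microglia, the resident macrophages of the brain, use the same relay for several cytokines, so these transcripts are not specific to IL-3.

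Both groups carried the 5xFAD transgenes, mutant human genes of familial Alzheimer's disease driven by the neuronal Thy1 promoter, on the strain given as C57BL6/J. One group was 5xFAD (replicates 4, 5 and 6) and the other Il3-/-5xFAD, in which both Il3 alleles are disrupted (replicates 1, 2 and 3). Animals were 5 months old, no agent is named for either group, and each of the 6 libraries pooled cells of 4 mice, 2 of either sex, so the sexes cannot be told apart. Cells were sorted from enzyme-digested brain as live cells positive for CD45 and CD11b, a gate that other myeloid cells and CD11b-positive NK cells can enter, and that T and B cells without CD11b would be expected to miss.

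The libraries held 27970850 to 37605490 reads, and Il3-/-5xFAD replicate 3 stood apart with 14435 genes that had a read, against 15740 to 17245 in the other 5. Reads of Il3 itself numbered 29 to 61 per 5xFAD library, and the Il3-/-5xFAD libraries had 0. The microglial label held: 10 listed microglial markers summed to 36436 to 38564 CPM in 5xFAD and 38109 to 41646 CPM in Il3-/-5xFAD, and no neuronal gene listed exceeded 3.68 CPM. Markers of several other cell types were lower in Il3-/-5xFAD. The summed level of 10 neutrophil genes ran from 1831 to 3704 CPM in 5xFAD and from 896 to 1404 CPM in Il3-/-5xFAD, that of 7 monocyte genes from 147 to 210.4 and from 68.1 to 135 CPM, and that of 10 genes of T cells and natural killer (NK) cells from 93.5 to 182 and from 47.3 to 60.6 CPM. Of their tested genes 5 of 9, 3 of 7 and 3 of 10 fell by limma, and none rose. Over all tested genes 0.63% fell and 0.252% rose. Of these 11 calls none was made without 5xFAD replicate 6, and without 5xFAD replicate 5 the counts were 0, 0 and 4. Without Il3-/-5xFAD replicate 2 they were 2, 1 and 0. The 5 neutrophil calls became 0 with median-ratio rescaling, robust estimation or either edgeR test and 1 with quantile normalization, and all 3 lists had 0 calls with no filter or no variance trend. Choroid plexus genes summed to 176 to 506 CPM in 5xFAD against 60.2 to 127 CPM, and 2 of the 3 tested fell (Ttr and Enpp2, named after their values were seen). The sums of oligodendrocyte and endothelial genes were also lower with no overlap (193 to 209 against 161 to 177 CPM, and 58.1 to 76.1 against 54.0 to 55.7 CPM), with 0 calls by limma. B cell genes overlapped between the groups, at 301 to 369 and 303 to 328 CPM. So did border macrophage genes (130 to 166 and 101 to 137 CPM) and astrocyte genes (143 to 171 and 130 to 151 CPM), with 0 calls by limma. Differences were negative for all 7 tested border macrophage genes (median -0.34) and for 3 of 4 tested astrocyte genes (median -0.77). In such bulk samples, fewer cells of a type and less RNA per cell cannot be told apart.

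The promoters of Cish and Socs3 are shown because they alone, of the 9 genes here with a promoter in the RefSeq table, held the letters TTCNNNGAA, the core that STAT dimers bind. The search used windows of 250 bases before to 50 after a start site, and the motif reads the same on both strands. Of 32851 such windows, 8.3% held at least 1 match and 0.457% held 2 or more. Cish held 2 matches, TTCCTGGAA with its first base at the start site (base 1) and TTCTTGGAA from base 12, and Socs3 held TTCTTAGAA from base -154. A match is a description of the letters and not a measured binding site. Both sequences are RefSeq's on GRCm38.p6, another build than the mm9 named for the files, printed 5′ to 3′ on the gene's strand with the matches in capitals. That of Cish is chr9:107296409-107296678 on the plus strand, which holds the first 20 transcribed bases, and that of Socs3 is chr11:117969367-117969616 on the minus strand, ending just before the start.
Cish: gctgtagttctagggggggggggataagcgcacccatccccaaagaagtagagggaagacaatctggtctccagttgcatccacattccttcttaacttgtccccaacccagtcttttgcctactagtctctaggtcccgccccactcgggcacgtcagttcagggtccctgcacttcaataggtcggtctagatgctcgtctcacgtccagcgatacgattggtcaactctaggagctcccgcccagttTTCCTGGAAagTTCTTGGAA
Socs3: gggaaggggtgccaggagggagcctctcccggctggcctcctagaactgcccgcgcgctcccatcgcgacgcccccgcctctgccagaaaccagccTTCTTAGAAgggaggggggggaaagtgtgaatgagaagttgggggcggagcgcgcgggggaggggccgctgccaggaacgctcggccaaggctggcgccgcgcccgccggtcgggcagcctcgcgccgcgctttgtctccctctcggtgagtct
Socs2 was not matched in that table.

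**Figure D1:**
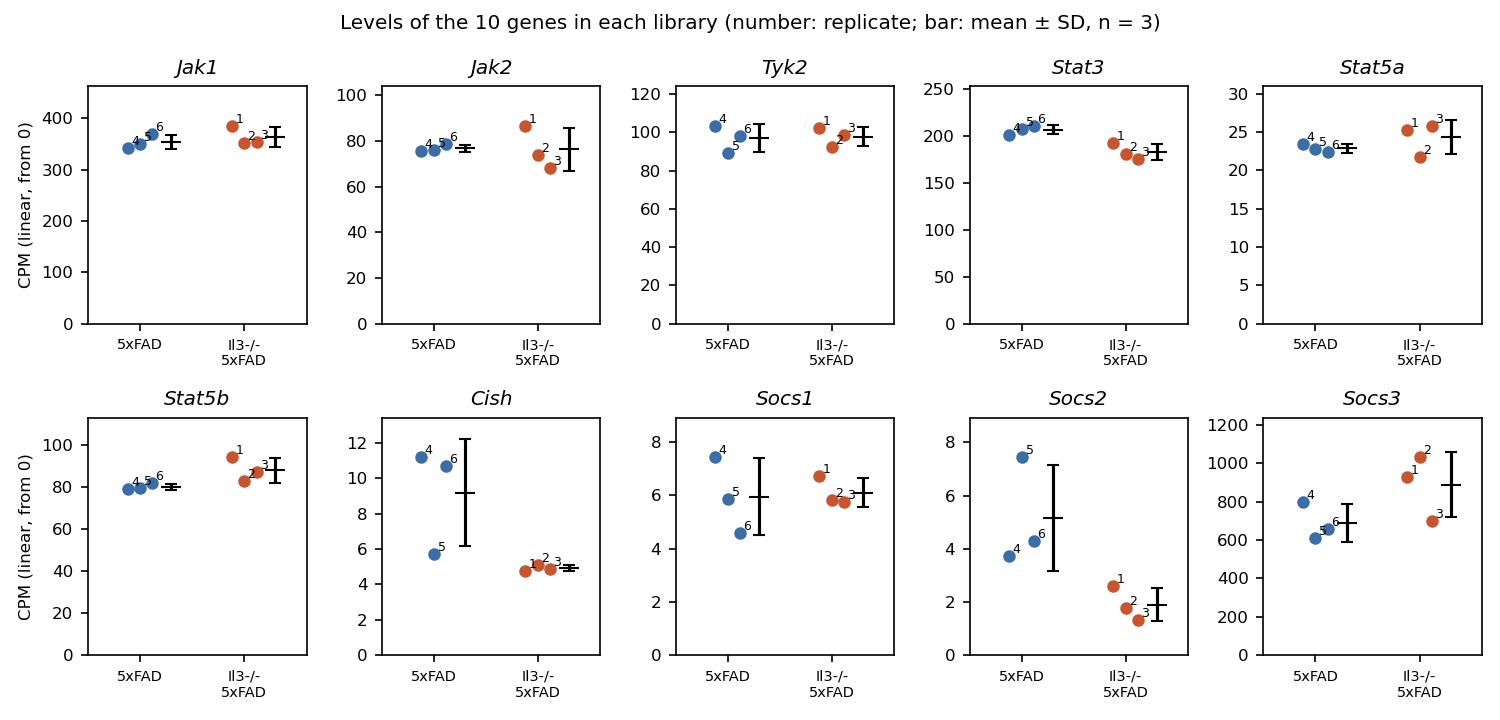
Levels of the 10 genes in CPM (vertical axes from 0) by group; each point is 1 library with its replicate number, and the bars give the mean and SD of 3 libraries. Cish and Socs2 lie lower in every Il3-/-5xFAD library than in any 5xFAD library, while the points of the Janus kinases overlap between the groups.

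The comparison asked how transcripts of the relay differed in microglia of amyloid-bearing mice when IL-3 was absent. None of the 10 genes passed limma's test at an adjusted p under 0.05, a threshold passed by 0.882% of all tested genes (0.252% higher and 0.63% lower in Il3-/-5xFAD). At an unadjusted p under 0.05 there were 4 (Socs2, Cish, Socs3 and Stat3), against 16.5% of tested genes. The groups did not overlap in 4 genes, lower in Il3-/-5xFAD for Cish, Socs2 and Stat3 and higher for Stat5b; this held for 21.2% of tested genes (11.5% lower and 9.65% higher). On recovered reads, edgeR's quasi-likelihood model called none of the 10, with TMM factors (0.504% of tested genes called) or library totals (0.58%), and DESeq2 called Cish and Socs2 (5.09%). The median log2 difference of the 10 genes was 0.03 and that of all tested genes -0.0006. Differences are Il3-/-5xFAD minus 5xFAD in log2(CPM + 1), and the added 1 makes those of low genes smaller than they are. Intervals of 95% come from the same fit and are not adjusted for the number of genes.

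Socs2 had the largest difference. SOCS2 is a STAT5-induced inhibitor best known for curbing growth hormone signalling. Its transcript was at 3.72, 7.45 and 4.31 CPM in 5xFAD replicates 4, 5 and 6 and at 2.59, 1.78 and 1.33 CPM in Il3-/-5xFAD replicates 1, 2 and 3. These values rest on 104, 218 and 162 reads and on 77, 50 and 44 reads. Every Il3-/-5xFAD library was below every 5xFAD library, and 5xFAD replicate 5 stood highest. The group means were 5.16 ± 2.01 and 1.9 ± 0.635 CPM (SD, n = 3), a ratio of 0.368. The log2 difference was -1.06 ± 0.28 (SE; 95% interval -1.68 to -0.44; limma adjusted p = 0.0876). Over 17 alternatives the adjusted p ran from 0.0138 (DESeq2, log2 difference -1.44) to 0.321 (limma without 5xFAD replicate 5, log2 difference -0.81). The other call came with weights on the libraries (limma adjusted p = 0.0321), a setting that called 8.0% of all tested genes.

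Cish encodes CIS, the founding member of the SOCS family, which binds phosphorylated receptor chains and competes with STAT5. It was at 11.2, 5.71 and 10.7 CPM in 5xFAD replicates 4, 5 and 6 and at 4.77, 5.08 and 4.88 CPM in Il3-/-5xFAD replicates 1, 2 and 3, from 313, 167 and 401 reads and 142, 143 and 161 reads. The Il3-/-5xFAD libraries lay close together, and 5xFAD replicate 5 lay just above them while the other 5xFAD libraries stood at higher levels. The means were 9.19 ± 3.03 and 4.91 ± 0.157 CPM (SD, n = 3), a ratio of 0.534. The log2 difference was -0.74 ± 0.24 (SE; 95% interval -1.26 to -0.21; limma adjusted p = 0.149). Over 18 alternatives the adjusted p ran from 0.0470 (DESeq2, log2 difference -0.90), the only call, to 0.490 (limma without 5xFAD replicate 6, log2 difference -0.61). Without 5xFAD replicate 5 the difference was -1.01.

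Socs3 was the most abundant of the 10 genes and pointed the other way. It was at 798, 609 and 658 CPM in 5xFAD replicates 4, 5 and 6 and at 929, 1032 and 700.2 CPM in Il3-/-5xFAD replicates 1, 2 and 3. The groups overlapped, since Il3-/-5xFAD replicate 3 was below 5xFAD replicate 4. The means were 688 ± 98.0 and 887 ± 170 CPM (SD, n = 3), with a log2 difference of 0.36 ± 0.14 (SE; 95% interval 0.05 to 0.66; limma adjusted p = 0.228). Without Il3-/-5xFAD replicate 3, the library with the fewest genes detected, it passed (0.52, limma adjusted p = 0.0406), where 4.99% of all tested genes did. It also passed with weights on the libraries (0.50, limma adjusted p = 0.0240) and did not in the other 16 alternatives.

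Socs1, whose product blocks the kinase domain of Janus kinases directly, showed no such separation. It was at 7.44, 5.84 and 4.57 CPM in 5xFAD replicates 4, 5 and 6 and at 6.72, 5.82 and 5.76 CPM in Il3-/-5xFAD replicates 1, 2 and 3. All Il3-/-5xFAD values lay within the 5xFAD range. The log2 difference of 0.05 ± 0.21 (SE; limma adjusted p = 0.940) had a 95% interval from -0.41 to 0.51, and it turned negative when 5xFAD replicate 6 (-0.10) or Il3-/-5xFAD replicate 1 (-0.01) was left out.

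The inhibitors had differences of both signs. Ratios within a library were taken for Socs2 and Cish over Socs3, pairs chosen after their values were seen, so they are given as a description with no test. The log2 ratio of Socs2 to Socs3, per length of their longest transcripts, was -8.48, -7.09 and -7.99 in 5xFAD replicates 4, 5 and 6 and -9.22, -9.92 and -9.77 in Il3-/-5xFAD replicates 1, 2 and 3. The difference between the group means was -1.78. For Cish to Socs3 it was -1.20.

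**Figure D2:**
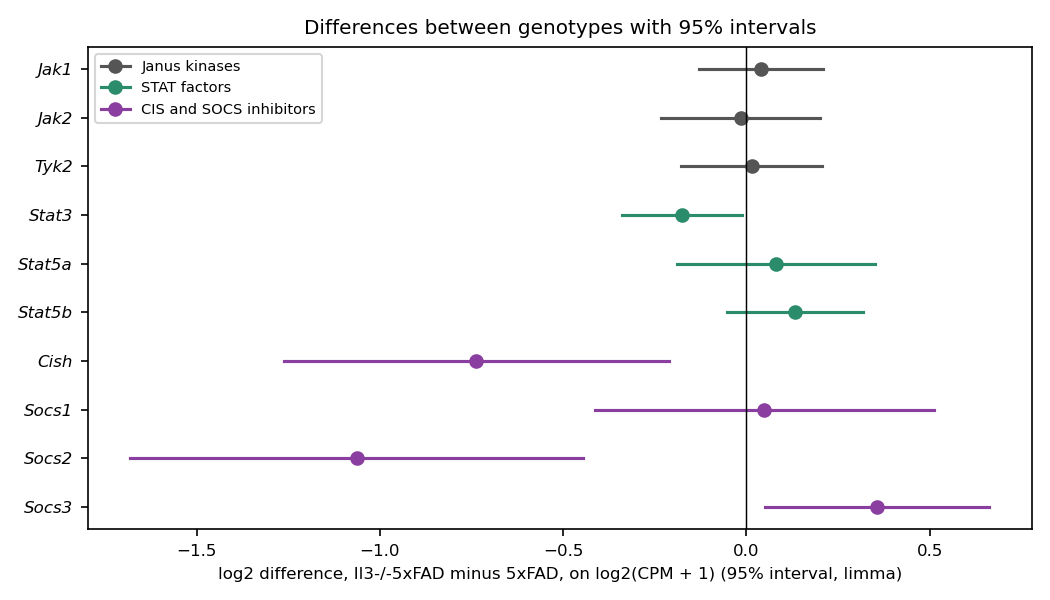
Log2 differences, Il3-/-5xFAD minus 5xFAD, on the log2(CPM + 1) scale (horizontal axis) for the 10 genes, coloured by role; points are limma estimates and lines unadjusted 95% intervals. The intervals of the Janus kinases are narrow around 0, while those of Cish, Socs2, Socs3 and Stat3 do not cross 0 although none passed after adjustment.

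The Janus kinases were at nearly equal levels in both groups. Jak1, the kinase shared by most receptors of the gp130, interferon and common gamma chain families, was at 342, 350.2 and 370.0 CPM in 5xFAD replicates 4, 5 and 6 and at 386, 352 and 354 CPM in Il3-/-5xFAD replicates 1, 2 and 3. Jak2, the kinase bound to the IL-3 receptor's beta chain, was at 75.8, 75.9 and 78.6 CPM and at 86.7, 73.7 and 68.4 CPM. Tyk2, which serves type I interferon receptors and those of IL-12 and IL-23, was at 104, 89.3 and 98.2 CPM and at 102, 92.5 and 98.8 CPM. For each kinase the groups overlapped, and for Jak2 the spread was wider in Il3-/-5xFAD (SD 9.45 CPM) than in 5xFAD (SD 1.57 CPM). The log2 differences were 0.04 ± 0.08, -0.02 ± 0.10 and 0.01 ± 0.09 (SE), with limma adjusted p of 0.854, 0.961 and 0.960. Their 95% intervals lay between -0.23 and 0.21, so changes of a kinase transcript beyond that range were outside the intervals of these libraries. Each of the 3 signs turned in at least 1 alternative.

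Among the STAT genes, Stat3 was lower and Stat5b higher in every Il3-/-5xFAD library, by small amounts. STAT3 carries signals of the IL-6 and IL-10 families. Stat3 was at 201, 208 and 211 CPM in 5xFAD replicates 4, 5 and 6 and at 193, 181 and 176 CPM in Il3-/-5xFAD replicates 1, 2 and 3. Its log2 difference was -0.18 ± 0.08 (SE; 95% interval -0.34 to -0.01; limma adjusted p = 0.270). Every Il3-/-5xFAD library was thus below every 5xFAD library, which held for 11.5% of tested genes. The ratio between the means was 0.886, and the difference did not pass over all genes.

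STAT5A and STAT5B are near-identical proteins and the main STATs of IL-3 signalling. Stat5b was at 78.9, 79.5 and 81.7 CPM in 5xFAD replicates 4, 5 and 6 and at 94.2, 82.7 and 86.9 CPM in Il3-/-5xFAD replicates 1, 2 and 3. Stat5a was at 23.5, 22.8 and 22.4 CPM and at 25.3, 21.8 and 25.9 CPM, with overlapping groups. The log2 differences were 0.13 ± 0.09 for Stat5b and 0.08 ± 0.12 for Stat5a (SE; limma adjusted p of 0.469 and 0.799). The log2 ratio of Stat5b to Stat5a per transcript length was 1.41 ± 0.06 in 5xFAD and 1.46 ± 0.09 in Il3-/-5xFAD (SD, n = 3), with overlapping groups. Of the stretches of 50 bases in the longest GENCODE transcript, 10.8% for Stat5a and 11.8% for Stat5b occur in the other gene, so reads from these stretches could not be assigned with certainty. Socs2 shares 7.23% of its stretches with Gm9847, a gene not analysed here, and its reads there are uncertain in the same way. In RefSeq's gene order Stat5b, Stat5a and Stat3 follow each other among tested genes of chromosome 11, which also carries Socs3 and Il3. Stat3 and Stat5a share 72 exon bases on opposite strands in GENCODE. Cish overlaps Gm17040, a pseudogene on the opposite strand with at most 4 reads in any library, over 261 bases, and Gm17041, an antisense gene not analysed here, over 479 bases (7.46% of the exon bases of Cish). Tyk2 overlaps 1700084C06Rik, an antisense gene with at most 25 reads. The kit keeps strand, but the counting mode is not given in the sources used here.

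Levels between genes were compared per kilobase of the longest GENCODE transcript. Over the 6 libraries the mean was 309 ± 64.6 CPM per kb for Socs3 (SD), 73.2 ± 3.27 for Jak1, 32.3 ± 2.39 for Stat3 and 20.2 ± 1.15 for Tyk2. Below these came Stat5b at 16.1 ± 1.11 CPM per kb, Jak2 at 15.2 ± 1.21 and Stat5a at 5.97 ± 0.414. The remaining inhibitors were lowest, Socs1 at 2.07 ± 0.334, Cish at 1.5 ± 0.644 and Socs2 at 0.832 ± 0.525 CPM per kb. The ranges of neighbours in this order were apart except for Stat5b and Jak2, Socs1 and Cish, and Cish and Socs2. Socs2 was below Cish in 5 of 6 libraries and above it in 5xFAD replicate 5. With the median length of a gene's transcripts the first 4 places were the same, while Jak2 and Stat5b exchanged places and Socs2 ranked above Cish and Socs1.

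**Figure D3:**
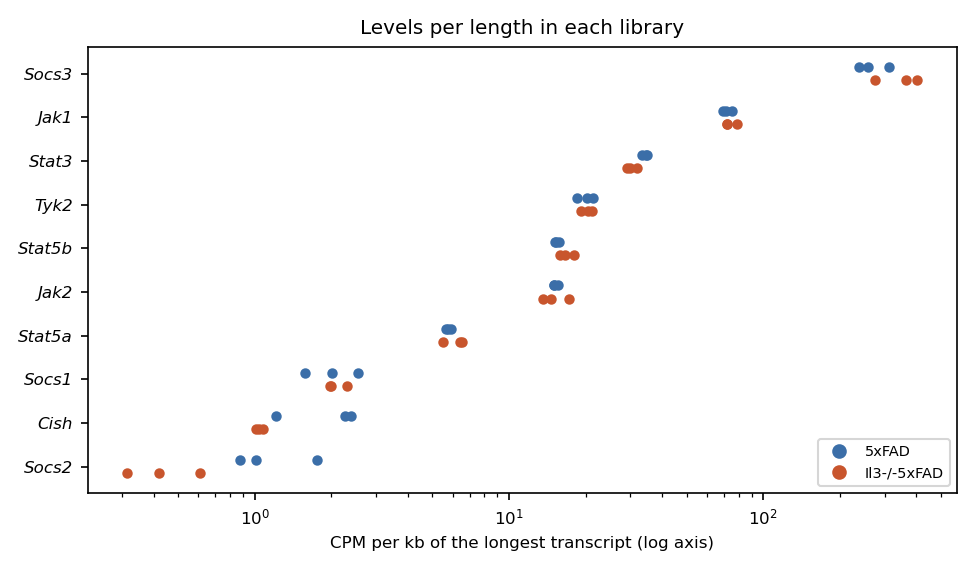
Levels of the 10 genes in CPM per kb of the longest transcript (log axis), with 1 point per library coloured by group. Over the 6 libraries Socs3 is never below 239 CPM per kb, and Socs2, Cish and Socs1 are never above 2.56.

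The profiles of Cish and Socs2, the genes whose CPM spanned at least 2-fold over the libraries, were set against those of all tested genes. The measure was the root-mean-square difference of log2(CPM + 1) values centred on each gene's mean over the 6 libraries. Nearest to Cish were Tom1l1 (0.092), Tbx21 (0.095), which encodes the T-bet factor of type 1 T cells and NK cells, and Eomes (0.129), which encodes its relative of NK and cytotoxic T cells. Tbx21 was at 6.15, 3.21 and 5.80 CPM in 5xFAD replicates 4, 5 and 6 and at 2.32, 2.06 and 2.33 CPM in Il3-/-5xFAD replicates 1, 2 and 3, a likeness to Cish that its choice fixed. Nearest to Socs2 were Apoc2 (0.110), an apolipoprotein gene, Ddr1 (0.138), a collagen receptor gene, and 9830107B12Rik (0.165). Apoc2 and Ddr1 had no read in Il3-/-5xFAD replicate 3 and at most 23 and 16 reads in the other Il3-/-5xFAD libraries.

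The levels of Cish, Socs2 and Socs3 were then placed beside lists for other cells and for early response, pairings chosen after the values had been seen. The T and NK cell list summed to 121, 93.5 and 182 CPM in 5xFAD replicates 4, 5 and 6. In Il3-/-5xFAD replicates 1, 2 and 3 the sums were 60.6, 59.4 and 47.3 CPM. Among the 5xFAD libraries this sum was lowest in replicate 5, as Cish was, and so was the choroid plexus sum (176 CPM). Single T and NK cell genes, also picked after their values were seen, went otherwise. Within 5xFAD, Gzma and Klrb1c were highest in replicate 5, and Cd3e was lowest in replicate 4. Between the groups Klrb1c had a log2 difference of -0.08 ± 0.23. None of the 10 genes was at 0 in any library. The neutrophil list summed to 1831, 3704 and 2708 CPM and to 1404, 896 and 1403 CPM, highest in 5xFAD replicate 5 as Socs2 was. The sums of monocyte, astrocyte, oligodendrocyte and B cell genes were highest in that library too, so this is not particular to neutrophil genes. Of the neutrophil list Ly6g was at 0 in Il3-/-5xFAD replicate 2. Csf3r, which made up 624 to 698 CPM of each neutrophil sum, did not differ in the same way (log2 difference 0.03 ± 0.08). The part of these cells in the differences of Cish and Socs2 was not tested.

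Cells switch on early response genes within minutes of stress such as tissue dissociation. The summed level of these genes gave the same order of the 6 libraries as Socs3, but single genes did not all do so. Jun was highest in Il3-/-5xFAD replicate 1, and Fos was lowest in 5xFAD replicate 6. The share of all tested genes with the order of Socs3 was not counted. The sum of the STAT3 targets gave the order of Socs3 too, but most of it came from Fos and Junb, which are also early response genes. In 5xFAD replicate 4 they were at 4236 and 3163 CPM of a STAT3 target sum of 8965 CPM. That shared order is thus not a separate observation. The 16 early response genes summed to 29977, 24017 and 24176 CPM in 5xFAD replicates 4, 5 and 6. In Il3-/-5xFAD replicates 1, 2 and 3 the sums were 35763, 39346 and 27961 CPM. None of the 16 passed by limma or edgeR. At an unadjusted limma p under 0.05 there were 8, against 16.5% of all tested genes, and DESeq2 called 5 (5.09%). Limma called 9 with library weights (8.0% of all tested genes) and 4 without Il3-/-5xFAD replicate 3 (4.99%). Without 5xFAD replicate 4 it called 1 (224 of 11743 tested genes). The median log2 difference was 0.33, and 15 of 16 differences were positive. The most abundant were Jun (0.45 ± 0.16) and Fos (0.34 ± 0.13), with limma adjusted p of 0.181 and 0.214. Dusp1, a phosphatase gene, and Klf6 (0.45 ± 0.12 and 0.59 ± 0.14, named after their values were seen) were higher in every Il3-/-5xFAD library. The part of this response in the level of Socs3 was not tested.

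**Figure D4:**
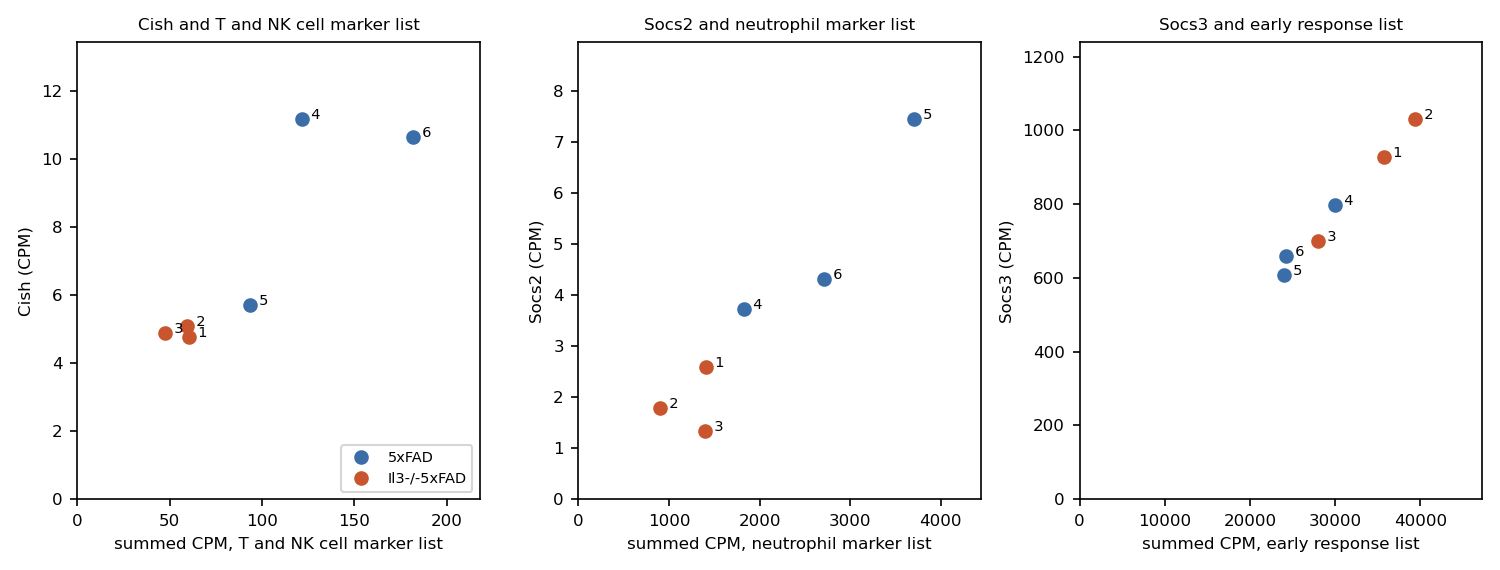
Level of Cish, Socs2 and Socs3 (vertical axes, CPM from 0) against the summed CPM of the T and NK cell, neutrophil and early response lists (horizontal axes from 0), with 1 numbered point per library coloured by group. In the panel of Socs3 the 6 libraries have the same order on both axes.

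Other genes of the pathway were taken from a list of 50, of which 48 were tested. By limma, 47 did not pass, 1 fell and 0 rose, where 0.882% of all tested genes passed. At the unadjusted level 5 of the 48 had p under 0.05, against 16.5% of all tested genes. Neither edgeR test called any, and DESeq2 called 3 (5.09% of all tested genes). Il2rg, the common gamma chain of the receptors for IL-2, IL-4, IL-7, IL-15 and IL-21, was at 17.2, 24.4 and 24.8 CPM in 5xFAD replicates 4, 5 and 6 and at 12.5, 12.5 and 9.03 CPM in Il3-/-5xFAD replicates 1, 2 and 3. It fell by 0.90 ± 0.18 on the log2 scale (SE; limma adjusted p = 0.0469). The call was made in 8 of 18 alternatives and was lost without 5xFAD replicate 5 (limma adjusted p = 0.187), without 5xFAD replicate 6 (limma adjusted p = 0.276) and without Il3-/-5xFAD replicate 2 (limma adjusted p = 0.0791). Lymphocytes express this gene strongly. The T and NK cell list was lower in the same libraries and the B cell list was not, and their part in the fall of Il2rg was not tested.

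For the chains of the IL-3 receptor the groups overlapped. Il3ra, the alpha chain gene, had group means of 9.0 ± 1.08 (5xFAD) and 7.69 ± 1.13 CPM (SD, n = 3). The beta chain genes had means of 149 ± 6.24 and 140.1 ± 11.6 CPM (Csf2rb) and of 83.2 ± 7.73 and 87.5 ± 5.11 CPM (Csf2rb2). Their log2 differences were -0.21 ± 0.19, -0.09 ± 0.08 and 0.08 ± 0.09 (SE). Of the other kinase and STAT genes, Stat6, the factor of IL-4 signalling, had group means of 255 ± 13.8 and 259 ± 13.4 CPM (SD, n = 3), with overlapping groups. Stat4, which transmits IL-12 signals in T and NK cells, was at 7.54, 6.83 and 6.67 CPM in 5xFAD replicates 4, 5 and 6 and at 5.10, 3.02 and 3.21 CPM in Il3-/-5xFAD replicates 1, 2 and 3 (log2 difference -0.77 ± 0.22, limma adjusted p = 0.106; named after its values were seen). The groups did not overlap.

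The SOCS genes outside the 10 showed small differences. Socs6 was at 69.2 ± 2.89 and 67.0 ± 4.01 CPM and Socs7 at 51.9 ± 1.33 and 58.0 ± 9.28 CPM (SD, n = 3), and the median log2 difference of the 4 was 0.12. Among 12 further inhibitors, the phosphatase genes Ptprc, which encodes CD45, and Ptpn6, which encodes SHP-1, had log2 differences of -0.06 ± 0.08 and -0.08 ± 0.07 (SE). Sh2b3, which encodes LNK, a brake on JAK2, was at 212 ± 12.2 and 246 ± 9.47 CPM (0.22 ± 0.08, limma adjusted p = 0.184). Among 8 adaptor genes Grb2 and Gab2 had differences of -0.05 ± 0.08 and 0.06 ± 0.09, and Gab1, a docking protein gene, was at 71.6, 56.9 and 57.4 CPM in 5xFAD replicates 4, 5 and 6 and at 92.4, 76.0 and 88.9 CPM in Il3-/-5xFAD replicates 1, 2 and 3 (0.47 ± 0.11, limma adjusted p = 0.0728). Sh2b3 and Gab1 were named after their values were seen, and in both the groups did not overlap.

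**Figure D5:**
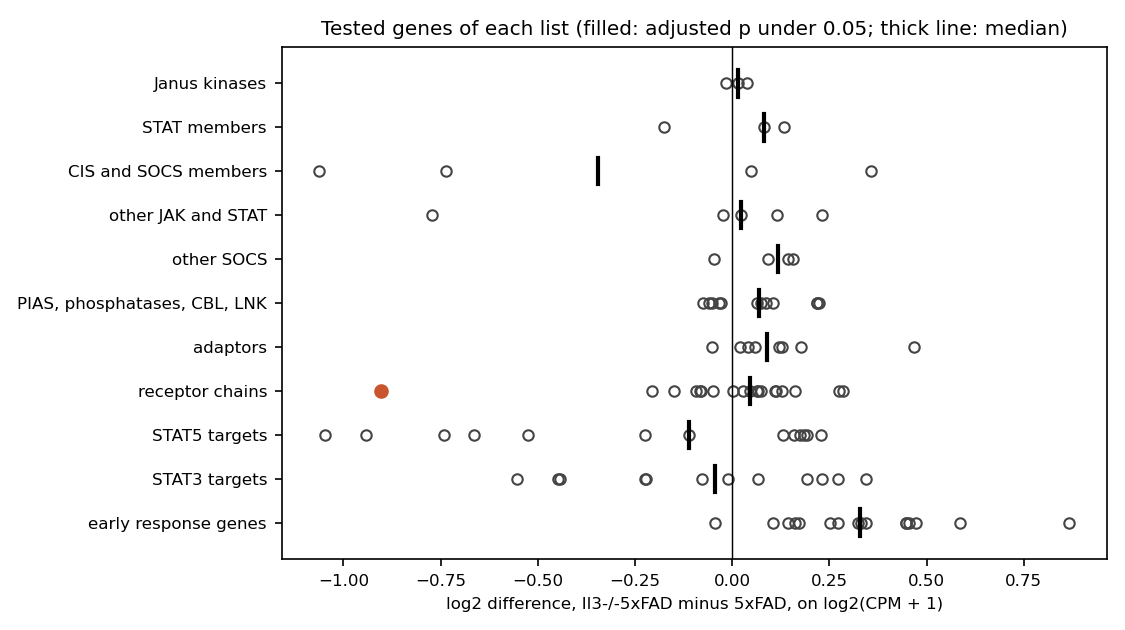
Log2 differences, Il3-/-5xFAD minus 5xFAD, on the log2(CPM + 1) scale (horizontal axis) for the tested genes of each list; open points did not pass, the filled point passed at a limma adjusted p under 0.05, and thick lines are list medians. The filled point is Il2rg at -0.90, and the early response list has a median of 0.33.

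Known target genes of STAT5 and STAT3 had differences of both signs. None of the 23 tested targets passed by limma or edgeR. An unadjusted limma p under 0.05 was found for 6, against 16.5% of all tested genes, and DESeq2 called 4 (5.09%). The median log2 difference was -0.11 for 13 STAT5 targets and -0.04 for 12 STAT3 targets, with 2 genes on both lists. The most abundant STAT5 targets were the cyclin gene Ccnd1 (0.16 ± 0.09) and the cytokine gene Osm (-0.11 ± 0.09), and the most abundant STAT3 targets Fos (0.34 ± 0.13) and Junb (0.27 ± 0.13), which are also early response genes. Closest to the threshold were 3 STAT5 targets, named after their values were seen. Bcl2, a survival gene, was at 23.6, 33.3 and 33.4 CPM in 5xFAD replicates 4, 5 and 6 and at 15.5, 20.1 and 16.8 CPM in Il3-/-5xFAD replicates 1, 2 and 3 (-0.74 ± 0.16, limma adjusted p = 0.0543). The cyclin genes Ccnd2 and Ccnd3 had differences of -1.05 ± 0.23 and -0.52 ± 0.12 (limma adjusted p of 0.0543 and 0.0624). All 3 were lower in every Il3-/-5xFAD library. They are also expressed by T, NK and B cells, of which the T and NK cell list was lower in the same libraries and the B cell list overlapped between the groups, and the part of these cells was not tested. Mcl1, a survival gene of the STAT3 list also named after its values were seen, was at 631 ± 34.2 and 742 ± 76.3 CPM (0.23 ± 0.09, limma adjusted p = 0.238).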

How the data were processed

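Sorted microglia of 6 pools, 3 per genotype, were profiled by polyA-selected, strand-keeping RNA sequencing, per the labels. The deposited values are CPM in 1 table; STAR, HTSeq, edgeR and mm9 are named, with no version or role, in the submitters' processing notes, and the counting mode is not given in the sources used here. All values (100%) were whole multiples of 1 read within 0.01 reads, so reads were recovered; 1 read was worth 0.0266 to 0.0358 CPM. Such counts carry counting error, and p-values measure the spread between 3 pools a group.

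Differences came from limma 3.58.1 (trend, two-sided) in R 4.3.3 on log2(CPM + 1), Benjamini-Hochberg adjusted over 11900 genes (59.1%) that reached 1 CPM in 3 libraries or more, threshold 0.05. On simulated reads of this comparison (11713 genes, 196 changed) it recovered 72% of 2-fold and 97.9% of 4-fold changes, with 9 of 175 calls false. The changed genes were drawn at random over all levels, and no library was simulated as an outlier. These rates thus do not give the recovery for low genes such as Cish and Socs2. Alternatives were pseudocounts of 0.25 and 5, other filters, scalings and variance models, library weights, leaving out each library, edgeR 4.0.16 and DESeq2 1.42.0. The 10 genes and all lists were chosen with earlier results of these data known. Beyond the 10, a list's called genes, or its 2 most abundant, are named, with the 3 nearest profiles of Cish and Socs2, Il3 and its receptor; exceptions are marked, and a gene of this rule is not reported here. Lengths, shared stretches and overlaps came from GENCODE M21 and promoters from RefSeq GRCm38.p6. Python 3.11.15 and matplotlib 3.10.9 were used.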

Additional observations from a re-analysis of the deposited data

How the results depend on the processing

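No paired analysis was possible because the groups share no replicate number. Over the alternatives, 663 of 726 log2 differences of the 41 genes named kept their direction and side of the threshold, 39 newly passed, 10 (all of Il2rg) no longer passed and 14 changed sign. Of these 14, Jak2 was at 0.0043 and Stat6 at -0.0029 with library weights and Tyk2 at -0.0126 after quantile normalization; the rest came from leaving out 1 library, where Jak1 ran from -0.0041 to 0.0708, Jak2 from -0.1106 to 0.0589, Tyk2 from -0.0444 to 0.062, Socs1 from -0.1006 to 0.1984, Stat6 from -0.0187 to 0.0663 and Gab2 from -0.0144 to 0.1209. Genes called over all tested genes were 105, against 8 with no filter, 68 with a mean of at least 5 CPM, 65 with median-ratio rescaling, 10 without the variance trend, 952 with library weights, 60 and 69 by edgeR with TMM factors and library totals, 605 by DESeq2, and 11 (without 5xFAD replicate 6) to 587 (without Il3-/-5xFAD replicate 3) without 1 library. Of the 10 genes, 2 passed with library weights, 2 by DESeq2, and 0 to 1 without 1 library. Of the other pathway genes, where 1 passed, 5 passed with library weights, 3 by DESeq2, 0 to 2 without 1 library, and 0 with no filter, the 5 CPM filter, either rescaling, no trend or either edgeR test. Of the STAT targets 1 passed with robust estimation, 5 with library weights, 4 by DESeq2 and 0 to 2 without 1 library. With the median transcript length, mean levels in CPM per kb were 569.9 (Jak1), 17.1 (Jak2), 21.5 (Tyk2), 260.4 (Stat3), 6.55 (Stat5a), 2.57 (Cish), 3.99 (Socs2) and 1608 (Socs3), since short transcripts enter that median. The cause of the other shifts was not tested. At 44 to 401 reads per library, Cish and Socs2 carry more counting error than the kinases.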
